A study of Mus musculus with 24 samples.

Results

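The R837 response of macrophages lacking IKKe was read from 6 of the 24 RNA-seq libraries of the study: 3 of TBK1-WT ∆IKKe cells given R837 for 8 h and 3 of the same cells left untreated, chosen by their titles. TBK1-WT ∆IKKe cells carry a wild-type TBK1 and a knockout of IKKe, the kinase encoded by Ikbke. All were bone marrow-derived macrophages (BMDMs), grown from the femur and tibia marrow of C57BL/6N mice in M-CSF, and the 3 libraries of a group came from 3 individual mice. How IKKe was removed, and which exons are affected, is not given in the sources used here. For comparison, 6 libraries of TBK1-WT ∆control cells (both kinases intact) and 6 of TBK1-cKD ∆control cells (called a TBK1 conditional knockout in the series' design text, IKKe intact) were used, each as 3 untreated and 3 R837 libraries. No library belongs to more than 1 of these 3 responses.

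R837 (imiquimod) is a small-molecule agonist of TLR7, an endosomal receptor for single-stranded RNA. TLR7 signals through MyD88 and IRAK kinases to TRAF6, TAK1 and the canonical IKK complex, which releases NF-kB from its IkB inhibitors, and to MAP kinases. IKKe and its relative TBK1 are the noncanonical IkB kinases; they phosphorylate IRF3 downstream of TRIF, MAVS and STING, and they also restrain the canonical IKKs. Interferon acts on its receptor through JAK and STAT proteins and raises a large set of interferon-stimulated genes (ISGs), many with an interferon-stimulated response element (ISRE) in the promoter.

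Levels below are CPM, a gene's counts scaled to a common library total, and changes are log2 ratios of R837 over untreated ± SE from edgeR's quasi-likelihood test, fitted to all 24 libraries with TMM scaling and called at an adjusted p (Benjamini-Hochberg) under 0.05. TMM factors were 1.12 to 1.14 in the untreated and 0.907 to 0.917 in the R837 libraries, so a ratio of CPM is lower than the fitted ratio. Gene counts per library ran from 20314401 to 39058322. The macrophage label held: all 8 macrophage markers were present, with a summed level of 23207 to 24207 CPM untreated and 25211 to 26241 CPM with R837. Of the defining markers of other cells, Ly6g, Cd3e, Mcpt4, Hba-a1 and Hbb-bs had 0 counts in all 6 libraries. Some others were present: Col1a1 at 16.4 to 20.8 CPM untreated and 9.76 to 13.7 CPM with R837, Col3a1 at 13.7 to 15.98 and 5.65 to 7.07 CPM, and S100a8 at 1.28 to 1.92 and 24.2 to 27.7 CPM.

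Ikbke RNA was reduced but not absent in the knockout. It stood at 41.02, 38.9 and 39.1 CPM untreated and 69.8, 64.1 and 72.7 CPM with R837, against 67.7, 68.2 and 68.1 CPM in the untreated and 401, 206 and 215 CPM in the R837 libraries of TBK1-WT control cells. TBK1-cKD control cells had Tbk1 at 85.4, 82.4 and 80.3 CPM untreated, against 117, 119 and 115 CPM in TBK1-WT control cells. For Ikbke, every untreated knockout library lay below every untreated control library, and the same held with R837. Gene-level counts cannot show whether the RNA left (chr1:131254343-131279606, GRCm38) is missing exons. R837 still raised it, by 1.11 ± 0.30 (adjusted p = 0.0031; 2.38 when nuclear RNA level, described next, is in the fit), with no overlap between the groups.

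A difference in nuclear RNA ran alongside the treatment in these 6 libraries. Malat1, Neat1 and Xist, RNAs that are held in the nucleus, were high in the 3 untreated and low in the 3 R837 libraries: Neat1 stood at 777, 905 and 744 CPM untreated and 30.7, 23.98 and 30.1 CPM with R837, Malat1 at 565, 448 and 445 CPM untreated and 43.3, 42.6 and 46.3 CPM with R837, and Xist at 685, 716 and 651 CPM untreated and 53.2, 45.3 and 53.6 CPM with R837. Their mean level was 9.07 to 9.20 log2 CPM untreated and 5.30 to 5.52 with R837. Over all 24 libraries, R837 libraries of high level were TBK1-WT control replicate 1 (8.94) and TBK1-cKD IKKe knockout replicate 3 (9.15), and every untreated library was high. Treatment and nuclear RNA level therefore cannot be told apart within the IKKe knockout libraries. A fit with that level as a term, which rests on these 2 libraries, is given where it changes a result. One more R837 library stood apart: log2 CPM of TBK1-cKD control replicate 2 correlated across genes at 0.986 and 0.985 with its replicates, against 0.998 between those, and 14226 genes had a count in it, against 17592 and 17948. The 2 R837 libraries of high nuclear RNA level correlated with their replicates at 0.985 to 0.989. What set that library apart was not tested, and the comparison with its group is given with and without it.

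Of 14681 genes tested, 10300 (70.2%) changed: 4751 rose (32.4%) and 5549 fell (37.8%). Changes of 2-fold or more numbered 1540 up (10.5%) and 3065 down (20.9%), and 148 genes rose and 92 fell by over 5 on the log2 scale. For 11761 genes (80.1%) the 3 libraries of one group all lay above the 3 of the other. The median change over all genes was -0.065. Without TMM it was -0.38, and 27.8% of called genes rose rather than 46.1%. In bulk RNA, fewer cells of a type and less RNA per cell cannot be told apart.

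**Figure D1:**
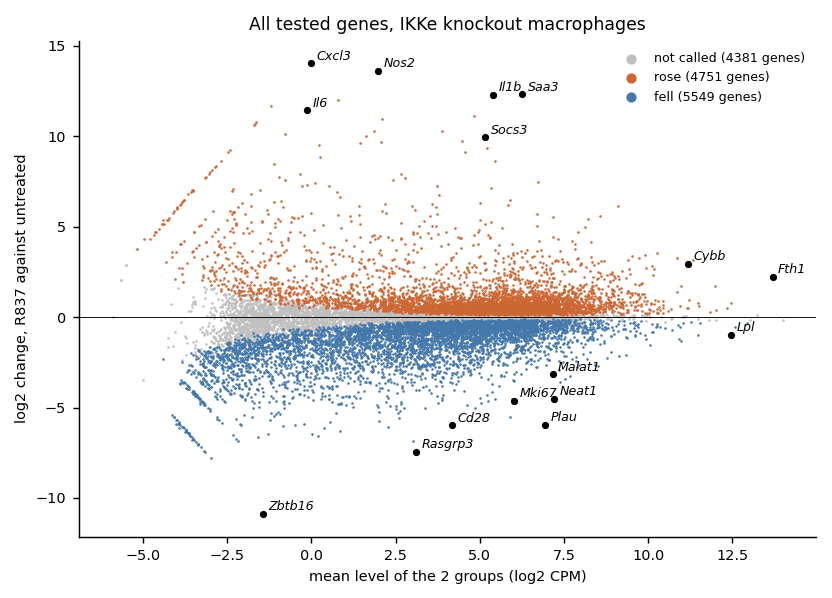
Each point is 1 of 14681 genes: mean level of the 2 groups (log2 CPM, x axis) against log2 change with R837 (y axis), in IKKe knockout macrophages, with 16 genes named. Rises reach further than falls, with Shisa3 (its point lies under that of Cxcl3), Cxcl3 and Nos2 at the top and Zbtb16 at the bottom, and called genes lie at every level.

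The largest rises were of genes close to silent before treatment, many of them inflammatory. Shisa3, which encodes a membrane protein, had 0 counts untreated and 5365 with R837, at least 1817-fold higher, taking 3 counts over the group as the floor. Nos2 makes nitric oxide in activated macrophages and had 3 counts over the untreated libraries and 33744 with R837, a CPM ratio of 11430 (exact 95% counting interval 3911 to 55426). Saa3, an acute-phase serum amyloid, stood at 0.999, 1.33 and 1.34 CPM untreated and 5508, 4637 and 4833 CPM with R837, a change of 12.33 ± 0.56 (adjusted p = 4.1e-14). Acod1, which makes itaconate, rose by 11.10 ± 0.16, and Lcn2, an iron-sequestering lipocalin, by 10.28 ± 0.23. The groups were far apart for each of these genes. Of 29 antimicrobial and immunometabolic effectors, 25 rose and 2 fell (all genes: 32.4% and 37.8%), with a median of 4.45. Those that fell were Plau, the urokinase plasminogen activator, at 953, 1158 and 1174 CPM untreated and 13.9, 15.97 and 13.1 CPM with R837, and Ptgs1, the constitutive cyclooxygenase (-2.60 ± 0.13). Ptgs2, the inducible cyclooxygenase, rose by 9.74 ± 0.14.

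Cytokine genes rose as a group: 23 of 30 tested rose and 3 fell, with a median of 3.17 (2.65 with genes at 0 set to their bound). Il1b, the precursor of interleukin 1 beta, stood at 0.845, 0.443 and 0.669 CPM untreated and 2869.5, 2898 and 2559 CPM with R837 (12.28 ± 0.20, adjusted p = 6.2e-21). Il12b, the p40 chain of IL-12 and IL-23, had 2 counts untreated and 7882 with R837, a ratio of 4005 (1108 to 33074). Il6 had 1 count against 3092, a ratio of 3142 (563.5 to 124140). Every R837 library was far above every untreated one for these genes. Csf3, which encodes the granulocyte growth factor G-CSF, had 0 counts untreated and was at least 348-fold higher with R837 against the same floor. The IL-10 relative Il19 was at least 178-fold higher by the same measure. Tnf rose by 3.29 ± 0.08 and the anti-inflammatory Il10 by 3.19 ± 0.12, while the IL-1 receptor antagonist gene Il1rn went from 74.2 ± 13.6 to 4261 ± 205 CPM (mean ± SD, n = 3). Hbegf (-3.07), Csf1 (-0.65) and Il15 (-0.54) fell.

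Chemokine genes rose nearly throughout the list: 23 of 25 tested rose and 2 fell, with a median of 2.71. Cxcl3, a ligand of CXCR2, stood at 0 CPM in each untreated library and 67.96, 58.6 and 52 CPM with R837, at least 1801-fold higher. Its relatives Cxcl1 (7.94), Cxcl2 (6.73) and Cxcl5 (5.10), also neutrophil attractants, rose too. Among CC chemokines, Ccl5 rose by 8.62 ± 0.27 and Ccl22 by 6.24 ± 0.25, and Ccl9 was among the largest gains in counts, from 964 ± 15.9 to 7018 ± 559.6 CPM. Ccl17, with 0 counts untreated, was at least 23.4-fold higher. The stromal chemokine Cxcl12 (-1.71, from 0.751 ± 0.4 to 0.189 ± 0.0633 CPM) and Cxcl14 (-0.71) fell; Cxcl12 was not called in the fit that includes nuclear RNA level (adjusted p = 0.16), nor without untreated replicate 1 (-1.17, adjusted p = 0.06).

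**Figure D2:**
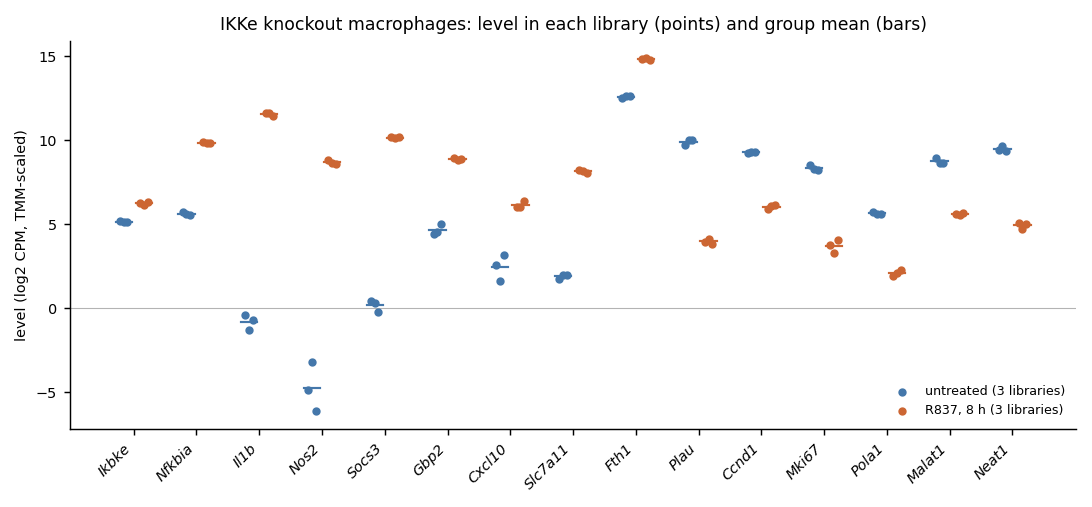
Level in each of the 3 untreated (blue) and 3 R837 (orange) libraries of IKKe knockout cells (log2 CPM, y axis) for 15 genes, with bars at group means. Replicates lie close together relative to the shift. For all 15 genes the groups do not overlap, as for 80.1% of all genes tested. The spread is widest for untreated Nos2, which rests on 3 counts.

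Genes for Toll-like receptors, TLR7 among them, and for proximal signalling moved in both directions. Of 29 genes in this list, 17 rose and 8 fell (all genes: 32.4% and 37.8%), with a median of 0.27. Without TMM the median was -0.04, with 12 up and 13 down. Tlr2, the lipopeptide receptor, stood at 79.6, 62.4 and 64.7 CPM untreated and 772, 804 and 725 CPM with R837 (3.79 ± 0.17). Cd14, a coreceptor, rose by 3.52 ± 0.13, Tlr1 by 2.17 ± 0.06 and the adaptor Myd88 by 1.65 ± 0.08. Irak3, the inhibitory IRAK, rose by 3.68 ± 0.07. Tlr7 itself, the R837 receptor, fell by 0.47 on the log2 scale, and Tlr9 (-1.20) and Tlr13 (-1.29) fell more. Tlr8 rose by 0.56 ± 0.11 and Tlr3 did not pass (-0.024, adjusted p = 0.86). Tlr5, the flagellin receptor, fell from 1.87 ± 0.173 to 0.0999 ± 0.0295 CPM (-3.86 ± 0.30), and lost its call in the fit that includes nuclear RNA level. Slc15a3, an endolysosomal histidine transporter, rose by 2.64 ± 0.09, and Cd180, a receptor related to TLR4, fell from 559.7 ± 9.13 to 99.7 ± 6.06 CPM.

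The IKK family and its adaptors changed by smaller steps. Of 20 genes, 13 rose and 3 fell (all genes: 32.4% and 37.8%), with a median of 0.30. The median became -0.01 (8 up, 6 down) without TMM. The study's title names N4BP1 and caspase-8, and N4bp1, a suppressor of NF-kB signalling that caspase-8 cleaves, stood at 62.04, 59.7 and 65.1 CPM untreated and 317, 300.2 and 312 CPM with R837 (2.62 ± 0.06). Casp8 moved little, from 86.5 ± 2.26 to 92.5 ± 1.78 CPM (0.41 ± 0.06; 0.10 and not called without TMM). Tbk1 stood at 117, 116 and 113 CPM untreated and 108, 114 and 106 CPM with R837, a fitted change of 0.23 ± 0.07 (adjusted p = 0.0095) that turned to -0.080 without TMM. Map3k8 (the kinase TPL2) rose by 2.45 ± 0.08, while Map3k14, the NF-kB-inducing kinase NIK, fell from 51.6 ± 3.21 to 13.9 ± 2.34 CPM (-1.58; -0.37 in the fit that includes nuclear RNA level). Among the adaptors of TBK1 and IKKe, Tank (0.73), Azi2 (0.82) and Tbkbp1 (0.77) rose and Optn (-0.70) fell. The response of Ikbke itself differed from that of TBK1-WT control cells by -1.16 ± 0.42 (adjusted p = 0.52), and by -0.82 (adjusted p = 5.2e-07) without the R837 libraries of high nuclear RNA level.

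NF-kB genes and their inhibitors rose together. Of 12 genes, 10 rose and 1 fell, with a median of 1.77. Nfkbia, the classical IkB alpha, stood at 61.4, 54.1 and 52.9 CPM untreated and 844, 834 and 819 CPM with R837 (4.20 ± 0.07), and Nfkbiz, the atypical IkB zeta needed for a late set of NF-kB targets, rose by 5.06 ± 0.09. Bcl3 rose by 3.54 ± 0.07, Nfkb2 by 2.18 ± 0.05 and Relb by 2.02 ± 0.07, whereas Rela and Rel moved by 0.70 and 0.27. Nfkbid fell by 0.67 but lost its call without R837 replicate 2 (-0.63, adjusted p = 0.052) and turned to 0.31 in the fit that includes nuclear RNA level. Negative regulators split. Of 28 feedback genes, 16 rose and 9 fell (all genes: 32.4% and 37.8%). Without TMM the counts were 12 and 12, and the median went from 0.25 to -0.06. The ubiquitin editor gene Tnfaip3 (A20, 2.72), Zc3h12a (Regnase-1, 3.66) and the MAP kinase phosphatase gene Dusp2 (5.04) rose. Zfp36l1 (-2.29), Spry2 (-1.28) and the Roquin genes Rc3h1 (-0.97) and Rc3h2 (-0.75) fell.

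Interferon-stimulated genes rose, but by less than cytokines and from a substantial untreated level. Of 60 genes, 43 rose and 3 fell, with a median of 0.85. The guanylate-binding protein gene Gbp2 stood at 24.1, 26.4 and 35.6 CPM untreated and 441, 409 and 423 CPM with R837 (4.19 ± 0.15), Gbp5 rose by 4.40 ± 0.23, Ifi205 by 4.34 ± 0.23 and Cd274, which encodes PD-L1, by 3.10 ± 0.15. Cxcl10, which is interferon-inducible but was placed in the chemokine list, stood at 6.71, 3.45 and 10.2 CPM untreated and 58.9, 60 and 76.7 CPM with R837 (3.54 ± 0.30). In contrast Ifit3, an antiviral tetratricopeptide gene, stood at 43.6, 33.9 and 61.7 CPM untreated and 42.3, 42.5 and 53.7 CPM with R837, and its groups overlapped (0.30 ± 0.23, adjusted p = 0.25). Ifit2 (0.41, adjusted p = 0.12), Iigp1 (0.20, adjusted p = 0.42) and, outside the list, Ifi206 (-0.035, adjusted p = 0.9) did not pass either. Untreated replicate 3 was the highest of the untreated libraries for these 4 genes. Without it, Ifit3 (0.57, adjusted p = 0.039) and Ifit2 (0.75, adjusted p = 0.0057) passed. Oas2 (-0.76) and Samd9l (-0.64) fell, and in the fit that includes nuclear RNA level stood at 0.35 and 0.0083; Oas2 also lost its call without R837 replicate 1 (-0.71, adjusted p = 0.054). Ifit3 and Ifit3b, and the Gbp, Ifi200 and Trim30 families, hold near-identical copies, so counts may be split among them.

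Interferon itself was hardly read at this time. Ifnb1 had 1 count over the 3 untreated and 5 over the 3 R837 libraries, and the 4 interferon alpha genes of the list had 0 counts in all 6. Of the receptor chains tested, Ifnar1 (1.13 ± 0.07), Ifnar2 (1.12 ± 0.06) and Ifngr2 (1.64 ± 0.05) rose and Ifngr1 (-0.27) fell. In the pathway downstream, the feedback inhibitor Socs3 stood at 1.54, 1.38 and 0.956 CPM untreated and 1039, 1023 and 1049.8 CPM with R837 (9.95 ± 0.16), Socs1 rose by 4.50 ± 0.20 and Jak2 by 2.79 ± 0.08; over 20 JAK, STAT and SOCS genes, 9 rose and 7 fell (median 0.15; -0.16 without TMM). The shares over all genes were 32.4% up and 37.8% down, not far from those of this list. The same list had 10 up and 1 down (median 0.41) in the fit that includes nuclear RNA level.

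The promoter windows of the ISGs Gbp2 and Ifit3 and the chemokine gene Cxcl10 are shown because each holds the ISRE letters while Gbp2 and Cxcl10 rose and Ifit3 did not pass. Cxcl10 and Ifit3 were picked after their values were seen. Each run is the 250 bases before the RefSeq start (GRCm38.p6), 5′ to 3′ on the gene's strand, with matches to the ISRE letters (GAAA, any 2 bases, GAAA) on either strand in capitals.
Gbp2 (chr3:142620413-142620662, plus strand): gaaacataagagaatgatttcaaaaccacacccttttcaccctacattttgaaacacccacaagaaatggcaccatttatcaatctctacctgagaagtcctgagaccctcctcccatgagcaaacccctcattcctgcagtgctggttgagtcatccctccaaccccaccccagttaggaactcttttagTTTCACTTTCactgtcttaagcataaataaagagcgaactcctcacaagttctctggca
Cxcl10 (chr5:92348890-92349139, minus strand): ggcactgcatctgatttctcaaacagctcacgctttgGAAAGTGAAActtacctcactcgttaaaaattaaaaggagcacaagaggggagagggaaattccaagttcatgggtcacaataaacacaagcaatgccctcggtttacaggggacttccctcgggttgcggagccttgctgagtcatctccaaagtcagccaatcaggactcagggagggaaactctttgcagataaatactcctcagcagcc
Ifit3 (chr19:34583279-34583528, plus strand): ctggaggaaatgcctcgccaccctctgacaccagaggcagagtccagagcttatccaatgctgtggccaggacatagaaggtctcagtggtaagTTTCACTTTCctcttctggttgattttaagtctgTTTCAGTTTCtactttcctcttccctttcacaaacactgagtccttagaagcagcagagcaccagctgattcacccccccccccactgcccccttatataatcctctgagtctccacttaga
The match in Gbp2 lies 59 to 50 bases before the start, that in Cxcl10 213 to 204, and those in Ifit3 156 to 147 and 122 to 113. Over windows of 250 bases before to 50 after the start, 28 of 47 ISGs with a window (59.6%) held the letters, against 3.27% of 10116 tested genes and 3.49% of all 27025 genes with a window. Among genes up 2-fold or more it was 6.11% of 1047. The NF-kB letters (GGG, any 5 bases, CC) on either strand were in 68.5% of those 1047 windows and in 67.4% of all tested. A match of letters is a description of the window and shows no binding.

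Antigen presentation genes rose in moderation. For comparison with the counts that follow, 32.4% of all genes rose and 37.8% fell. In the class I list, 15 of 20 rose and 1 fell (median 0.54; 10 and 4 without TMM), led by the proteasome activator gene Psme2 (2.61 ± 0.15) and the immunoproteasome subunits Psmb10 (1.33) and Psmb8 (1.14). For class II and costimulation, 13 of 22 rose and 3 fell; Tnfrsf9 (4-1BB) rose by 7.61 ± 0.24, whereas Ciita, the class II transactivator, fell from 4.65 ± 0.108 to 0.529 ± 0.255 CPM (-2.80; -1.73 in the fit that includes nuclear RNA level) and Havcr2 (TIM-3) from 78.1 ± 2.13 to 5.47 ± 0.412 CPM. Among scavenger and lectin receptors, 20 of 30 rose and 6 fell. Clec4e (Mincle) stood at 8.17, 9.16 and 9.47 CPM untreated and 1346, 1356 and 1179 CPM with R837 (7.49 ± 0.15), and Marco (8.84), Olr1 (7.28) and Trem1 (5.59) rose, while the mannose receptor gene Mrc1 (-2.27) and Clec10a (-3.69) fell. The formyl peptide receptor genes Fpr1 (10.96 ± 0.26) and Fpr2 (10.31 ± 0.26) rose with Gpr84 (7.16), and Gpr34 (-6.05) and P2ry12 (-3.54) fell.

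Many matrix genes were also raised. Of 25 genes for proteases and matrix, 20 rose and 2 fell, with Mmp14 (6.50 ± 0.11), Mmp13 (5.59 ± 0.19) and the proteoglycan gene Vcan (7.25 ± 0.16) in front. Mmp13 stood at 48.6, 63.5 and 76.5 CPM untreated and 2561, 2617 and 2168 CPM with R837, with no overlap. Of 19 complement and coagulation genes, 8 rose and 3 fell (all genes: 32.4% and 37.8%), with a median of 0.22. Without TMM the median was -0.09, with 8 up and 6 down. C3, the central complement component, rose by 4.73 ± 0.19 and Thbs1 by 4.05 ± 0.12.

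Metabolic lists moved toward glycolysis and antioxidant genes. Of 28 glycolysis and HIF1 target genes, 21 rose and 4 fell (median 1.32). Hif1a stood at 122, 123 and 124 CPM untreated and 696, 689 and 649 CPM with R837 (2.77 ± 0.05), Pfkfb3 rose by 3.26 ± 0.15 and Slc2a6 by 3.12 ± 0.19, while the glucose transporter gene Slc2a3 fell by 1.75. Of 20 NRF2 targets, 18 rose (median 1.26; 17 in the fit that includes nuclear RNA level and 15 without TMM, with 1 down in each). The cystine transporter gene Slc7a11 stood at 3.84, 4.33 and 4.3 CPM untreated and 276, 262 and 243 CPM with R837 (6.29 ± 0.12), and Hmox1, the heme oxygenase, rose by 3.41 ± 0.11 and Gsr by 3.37 ± 0.08. Fth1, the ferritin heavy chain, had the largest gain in counts of any gene, from 6901 ± 352 to 26389 ± 707 CPM (2.25 ± 0.13); it has processed pseudogenes that can share its reads. The 8 genes of largest gain in CPM (Fth1, Ccl9, Saa3, Cybb, Tnfrsf1b, Il1rn, Adgre1 and Cd14) took 1.202% to 1.281% of gene counts untreated and 6.29% to 6.55% with R837.

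For lipids, 18 of 28 cholesterol synthesis and SREBP genes rose and 3 fell, at a small median of 0.39; 10 rose and 8 fell without TMM, and 12 rose and 5 fell in the fit that includes nuclear RNA level. Of 14 LXR targets, 7 rose and 6 fell (all genes: 32.4% and 37.8%), with a median of 0.09 (-0.22 without TMM). In the fit that includes nuclear RNA level, 3 rose and 7 fell (median -0.14). Nr1h3, which encodes LXR alpha, rose by 3.02 ± 0.08 and the efflux transporter gene Abca1 by 1.23 ± 0.06, while Abcg1 (-2.30 ± 0.09) fell. Of 29 ATF4 and unfolded protein response genes, 19 rose and 9 fell, with the asparagine synthetase gene Asns at 2.38 ± 0.22 (1.51 in the fit that includes nuclear RNA level) and the stress factor gene Ddit3 at -1.01 ± 0.17. Lpl, the lipoprotein lipase, lost most CPM among called genes, at 8623, 8997 and 9066 CPM untreated and 3593, 3792 and 3582 CPM with R837 (-0.97 ± 0.07), and Lipa, the lysosomal acid lipase, fell by 1.53. Of 40 lysosome and autophagy genes, 15 rose and 12 fell, near the 32.4% and 37.8% of all genes. The counts were 11 and 23 without TMM and 15 and 21 in the fit that includes nuclear RNA level. Ctsc, a cathepsin, stood at 3.28 ± 0.14 and Atp6v0d2, a proton pump subunit, at -2.95 ± 0.09.

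Genes of DNA replication and of mitosis fell almost without exception. Of 40 genes for DNA replication and the G1/S step, 39 fell and Cdc25a rose (0.26; -0.054 without TMM), with a median of -2.17. Pola1, the catalytic subunit of DNA polymerase alpha, stood at 59.8, 54.6 and 55.1 CPM untreated and 3.33, 3.86 and 4.37 CPM with R837 (-3.56 ± 0.13), and E2f8, an atypical E2F factor, at 57.5, 53.2 and 49.3 CPM untreated and 4.8, 3.68 and 4.66 CPM with R837 (-3.29 ± 0.12). All R837 libraries lay below all untreated ones for both. Of 40 mitosis and cytokinesis genes, 39 fell and Pttg1 rose (0.56; 0.25 and not called without TMM or in the fit that includes nuclear RNA level), with a median of -2.01. Mki67, the proliferation marker Ki-67, stood at 412, 357 and 334 CPM untreated and 12.2, 8.79 and 15.02 CPM with R837 (-4.62 ± 0.71; -1.82 in the fit that includes nuclear RNA level). Both list medians changed little with that term, to -1.89 and -2.04. The list of cyclin D, CDK inhibitor and Myc network genes was less uniform. Of its 19 genes tested, 3 rose and 13 fell (all genes: 32.4% and 37.8%), with a median of -0.38. In the fit that includes nuclear RNA level, 2 rose and 10 fell. The G1 cyclin gene Ccnd1 stood at 694, 719 and 707 CPM untreated and 54.6, 61.4 and 65.3 CPM with R837 (-3.24 ± 0.08), with Cdk6 (-1.83) and Rbl1 (-1.75), while Ccnd3 rose by 1.62 ± 0.09.

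Several lists changed in shares near those of all genes (32.4% up and 37.8% down), so their counts say nothing particular of them. Of 27 AP-1, EGR and NR4A genes, 12 rose and 11 fell. Batf (4.65 ± 0.09), Maff (3.08 ± 0.16) and Junb (1.74) rose and Fosb (-4.66 ± 0.52; -3.60 in the fit that includes nuclear RNA level) and Egr3 (-4.53 ± 0.30) fell. Of 20 p53 targets 9 rose and 8 fell (4 and 10 without TMM), with Btg2, an antiproliferative gene, at 1.49 ± 0.07, the CDK inhibitor gene Cdkn1a at 0.87 and Plk2 at -3.46 ± 0.18. Of 9 osteoclast genes 2 rose, Mmp9 (4.34 ± 0.11) and Acp5 (2.71 ± 0.08), and 5 fell, among them the integrin gene Itgb3 (-2.91 ± 0.18).

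The windows of Pola1 and E2f8 are shown for the E2F letters TTNGCGC on either strand, in capitals, as the 250 bases before the start.
Pola1 (chrX:93632156-93632405, minus strand): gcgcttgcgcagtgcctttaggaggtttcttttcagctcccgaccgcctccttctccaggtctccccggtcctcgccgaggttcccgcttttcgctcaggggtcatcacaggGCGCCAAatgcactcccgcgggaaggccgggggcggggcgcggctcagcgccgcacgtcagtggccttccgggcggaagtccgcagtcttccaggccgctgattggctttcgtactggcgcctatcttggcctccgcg
E2f8 (chr7:48881597-48881846, minus strand): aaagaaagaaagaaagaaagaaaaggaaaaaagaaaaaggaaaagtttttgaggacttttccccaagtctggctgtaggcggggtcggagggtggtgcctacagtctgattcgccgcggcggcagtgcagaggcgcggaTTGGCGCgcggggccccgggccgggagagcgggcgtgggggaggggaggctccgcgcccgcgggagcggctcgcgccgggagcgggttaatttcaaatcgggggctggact
The match lies 138 to 132 bases before the start in Pola1 and 111 to 105 in E2f8. Over windows of 250 before to 50 after the start, these letters were in 32.4% of 34 G1/S genes and 21.2% of 33 mitosis genes with a window, against 11.2% of all tested genes and 11.7% of the 2088 genes down 2-fold or more.

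Other large falls, among genes of at least 5 CPM in the higher group, were of single genes of several kinds. Zbtb16, which encodes the factor PLZF, had 754 counts untreated and 0 with R837, at least 247-fold lower. Rasgrp3, a Ras activator, stood at 135, 125 and 125 CPM untreated and 0.653, 0.465 and 0.652 CPM with R837 (-7.44 ± 0.18), and Slco2b1, an organic anion transporter, fell by 6.87 on the log2 scale. Cd28 stood at 151, 164 and 173 CPM untreated and 1.93, 2.18 and 2.15 CPM with R837 (-5.97 ± 0.15). Beside Gpr34 and Plau, given above, the other genes of the 12 were Cmah, Plekhh2, Etl4, Rtn4rl1, Ppm1e and Npas4, at -6.55 to -5.80; Npas4 stood at -2.65 in the fit that includes nuclear RNA level. Of 30 macrophage identity genes, 13 rose and 11 fell (10 and 16 without TMM), again in shares near the 32.4% and 37.8% of all genes. Adgre1 (F4/80) went from 2540.4 ± 72.8 to 6696 ± 144 CPM, Cebpb rose by 3.31 ± 0.12 and Cebpd by 3.40 ± 0.10, while Irf4 (-4.52 ± 0.25) and Cd84 (-1.45) fell. Nlrp1b, an inflammasome sensor with near copies, fell from 47.9 ± 0.738 to 0.788 ± 0.219 CPM (-5.60; -2.82 in the fit that includes nuclear RNA level), whereas Nlrp3 rose by 2.91 ± 0.07. In all, 22 of 40 cell death and inflammasome genes rose and 14 fell (all genes: 32.4% and 37.8%). The death receptor gene Fas stood at 3.60 ± 0.14, the survival genes Cflar at 1.81 and Birc3 at 2.86, and Bcl2 at -2.01 ± 0.17.

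**Figure D3:**
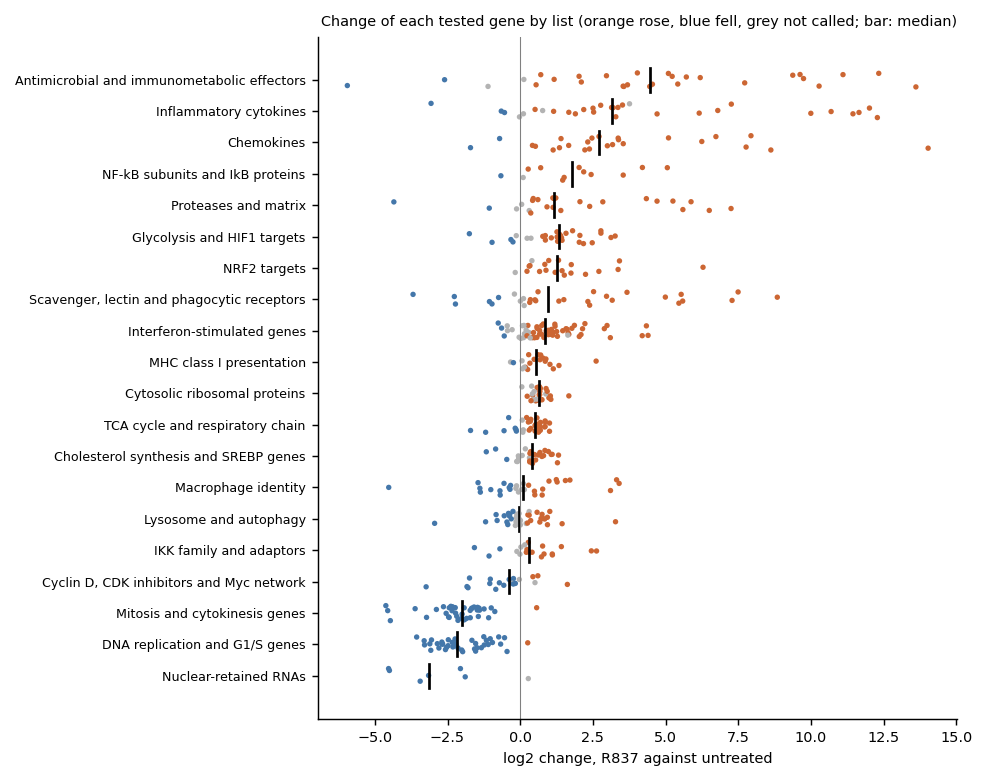
Log2 change with R837 (x axis) of each tested gene of 20 lists (rows) in IKKe knockout macrophages; orange points rose, blue fell, grey were not called, and black bars are medians. Effectors, cytokines and chemokines spread furthest to the right, and the replication and mitosis lists sit to the left of 0 except for Cdc25a and Pttg1.

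Marker lists of other cells were low and moved unevenly. Of 10 neutrophil genes tested 4 rose and 2 fell (all genes: 32.4% and 37.8%). Camp (3.56), Mmp8 (2.39), Csf3r (1.85) and S100a8 rose, and Cxcr2 (-1.89) and Ltf (-1.72) fell. Those 2 falls were not called in the fit that includes nuclear RNA level. The summed level of these 10 genes went from 57.0 to 67.8 CPM untreated to 195.9 to 211 CPM with R837. S100a8 accounted for part, from 1.59 ± 0.322 to 26.1 ± 1.75 CPM, while S100a9 was at most 2.04 CPM untreated and 2.18 CPM with R837, and Ly6g was at 0. The 7 lymphocyte markers tested summed to 287 to 319 CPM untreated and 57.7 to 62.1 CPM with R837, chiefly through Il7r (-2.32 ± 0.08), with Cd3e at 0. Hdc, the histidine decarboxylase of mast cells and activated myeloid cells, rose from 0.197 ± 0.0945 to 17.03 ± 1.6 CPM with Mcpt4 at 0. The 12 stromal markers tested summed to 72.8 to 88.8 CPM untreated and 53.2 to 68.0 CPM with R837. The part of these cells in the results was not tested.

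Gene width moved with the change as well. By exonic width in the deposited files, the median change of all tested genes was 0.31 below 500 bases (499 genes) and fell bin by bin to -0.48 at 6000 bases or more (1955 genes). Of the shortest class 30.9% rose and 15.0% fell, and of the longest 21.0% rose and 56.7% fell. In the fit that includes nuclear RNA level, bin medians lay between -0.053 and 0.036. In that fit, 6660 of the 10300 calls (64.7%) were made in the same direction and 166 genes were called the opposite way. Without a change of direction or a lost call, the fitted fold, not its log2, also moved by over 1.5 times in that fit for other genes. Among them, with the log2 change in that fit, were Saa3 (13.43), Marco (10.48), Tlr2 (3.16), Ccl9 (2.33), Slc2a6 (2.33), Gpr84 (6.53), Il1rn (5.54), Shisa3 (13.39), Il19 (9.91), Ccl17 (7.11), Hdc (5.96), Plk2 (-2.86), Rasgrp3 (-6.80), Slco2b1 (-7.61), Gpr34 (-6.67), Etl4 (-5.55) and Rtn4rl1 (-5.27). Some lists depended on it: 21 of 30 cytosolic ribosomal protein genes rose (median 0.66) but 2 with the term (median -0.05), and the TCA cycle and respiratory chain list went from 24 up and 7 down (median 0.51) to 12 up and 8 down (0.11). Medians of the cytokine (3.04), effector (4.40), NF-kB (1.73) and NRF2 (1.04) lists stayed far above 0. Whether the nuclear RNA level, or what gave rise to it, produced these patterns was not tested.

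**Figure D4:**
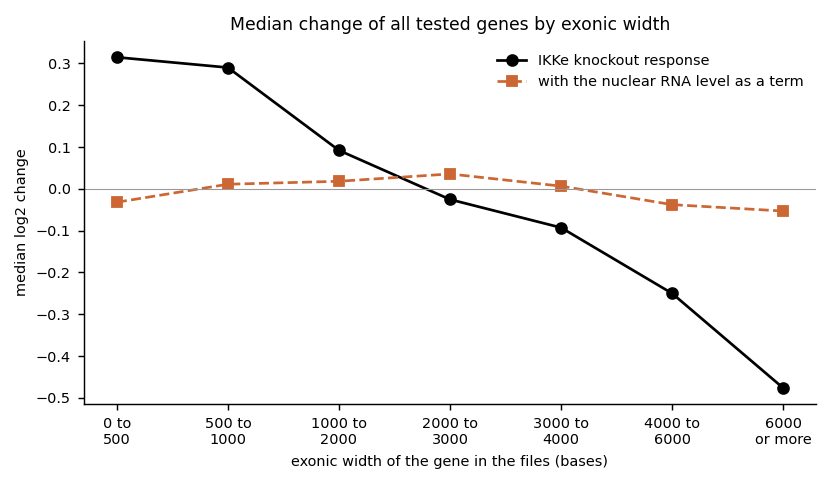
Median log2 change with R837 of all tested genes (y axis) in 7 classes of exonic width (x axis, bases), without that level (black) and in the fit that includes nuclear RNA level (orange). The black line runs from 0.31 to -0.48 with increasing width, and the orange line stays between -0.053 and 0.036.

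The response in IKKe knockout cells was next set against that of TBK1-WT control cells, which differ by the presence of IKKe, by testing the difference of the 2 responses. Few genes differed: 36 of 14681 (0.245%), of which 19 (0.129%) responded more positively in the knockout and 17 (0.116%) more negatively. Ptgs2 reached 627, 603 and 518 CPM in the R837-treated knockout and 248, 247 and 238 CPM in R837-treated controls, from 0.768, 0.886 and 0.893 CPM and 1.03, 0.943 and 0.603 CPM. Its responses were 9.74 and 8.37, a difference of 1.37 ± 0.20 (adjusted p = 0.002) that missed the threshold in limma-voom (adjusted p = 0.13). Pla2g4a, the phospholipase that frees arachidonic acid for cyclooxygenases, differed by 0.75 ± 0.10 (adjusted p = 0.0015). Its level with R837 was 119, 121 and 111 CPM in the knockout and 79.4, 83.9 and 81.6 CPM in controls. In both genes the R837 libraries of the knockout lay above all those of the control, and the untreated ranges overlapped for Ptgs2 and lay lower in the knockout for Pla2g4a.

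Others on the higher side were Gja1, which encodes connexin 43, at 1.15 ± 0.18 (adjusted p = 0.0039), Il17ra at 0.76 ± 0.09 (adjusted p = 0.00039), Rcl1 at 0.94 ± 0.14 (adjusted p = 0.0025), Timp1 at 1.04 ± 0.19 (adjusted p = 0.018) and the small GTPase gene Rnd1 at 1.03 ± 0.16 (adjusted p = 0.006). Hif1a (0.47 ± 0.07, adjusted p = 0.0025) and the chemokine gene Ccl3 (0.65 ± 0.10, adjusted p = 0.002) were also called. On the lower side, genes that R837 lowered fell further in the knockout. Kitl, which encodes stem cell factor, stood at 4.96, 4.72 and 4.24 CPM with R837 against 8.32, 7.91 and 8.76 CPM in controls (-0.69 ± 0.11, adjusted p = 0.006), and Cxcr4, the CXCL12 receptor, at 22.2, 21.3 and 20.9 CPM against 34.97, 34.2 and 27.2 CPM (-0.63 ± 0.10, adjusted p = 0.0051). Lrrc32 (-1.20 ± 0.16, adjusted p = 0.0015), Gpr162 (-0.91 ± 0.16, adjusted p = 0.0084), Fbxo32 (-0.83 ± 0.15, adjusted p = 0.012), Arhgap22 (-0.68 ± 0.12, adjusted p = 0.012), Hmga2 (-0.69 ± 0.13, adjusted p = 0.02) and Zfyve28 (-1.45 ± 0.30, adjusted p = 0.048) followed. Of the 15 genes named here by the size of their difference, 7 were called under all 21 alternatives: Gja1, Rcl1, Il17ra, Pla2g4a, Lrrc32, Gpr162 and Kitl. Zfyve28 was lost in 13, Hmga2 in 10 and Timp1 in 8 of them. TBK1-WT control R837 replicate 1 has the high nuclear RNA level; without it and the other R837 library of high level, 55 genes were higher and 60 lower. Leaving out 1 library gave 10 to 22 higher and 7 to 20 lower.

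No ISG passed this test by edgeR, but nearly all leaned one way. Of 60 ISGs, 0 were called and 58 had a lower response in the knockout than in controls. The median difference was -0.50 (all genes -0.027). With any 1 of the 12 libraries left out, it ran from -0.58 to -0.35, and 0 ISGs were called. The -0.35 came without knockout untreated replicate 3. ISGs are raised together by interferon, so counts of them are not counts of independent genes. At an unadjusted p under 0.05, 39 were lower and 0 higher (6.9% of all tested genes lay under that p, in either direction), DESeq2 called 3 lower, and the fit that includes nuclear RNA level called 5 lower. The untreated knockout had the higher mean level for 60 of 60 ISGs (median difference 0.35 log2 CPM), and the R837-treated knockout for 15 of 60 (median -0.15). Over ISGs, the median level in each untreated library was 5.59, 5.33 and 5.94 log2 CPM in the knockout and 5.28, 5.37 and 5.42 in controls, so the untreated groups overlapped. With R837 it was 6.82, 6.87 and 6.99 in the knockout and 7.04, 7.0 and 7.09 in controls, without overlap.

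Against TBK1-cKD control cells, in which IKKe is intact, more genes differed, ISGs among them. These cells also differ from IKKe knockout cells in TBK1, so the parts of TBK1 and IKKe in this difference cannot be told apart. Both differences share the 6 IKKe knockout libraries. All R837 libraries of both groups had a low nuclear RNA level. Of 14681 genes, 257 (1.75%) differed: 57 (0.388%) were higher and 200 (1.36%) lower in the response of IKKe knockout cells. These counts moved with the setting: they were 397 and 561 in the fit that includes nuclear RNA level, 334 and 511 without the R837 libraries of high level, and 25 to 57 and 137 to 241 on leaving out 1 library. Without TBK1-cKD control R837 replicate 2, the library that stood apart, 44 genes were higher and 216 lower, with 47 ISGs lower. Of 60 ISGs, 47 were lower and 0 higher, and all 60 had a lower estimate, with a median difference of -1.24 against 0.018 over all genes. The median response of the list was 0.85 in IKKe knockout, 1.38 in TBK1-WT control and 2.20 in TBK1-cKD control cells. Leaving out any 1 of the 12 libraries left 41 to 49 ISGs lower, and the other scalings, DESeq2 and both treatments of the nuclear RNA level 48 to 55.

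**Figure D5:**
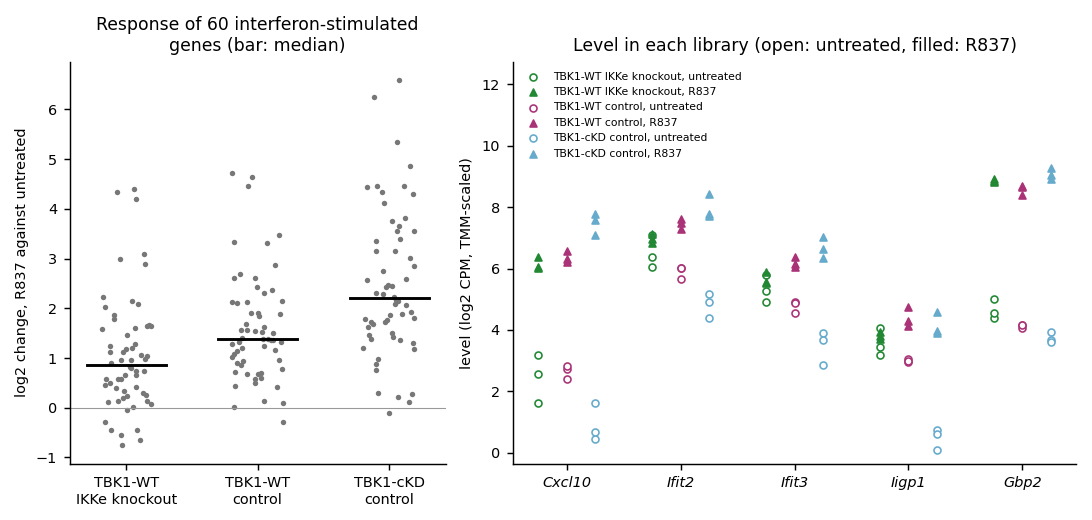
Left: log2 change with R837 (y axis) of each of 60 ISGs in 3 genotypes, with medians of 0.85, 1.38 and 2.20. Right: level in each library (log2 CPM, y axis) of 4 ISGs and Cxcl10, open circles untreated and filled triangles R837, with 3 libraries per group. The mean of TBK1-cKD control cells is the lowest untreated and the highest with R837 for Cxcl10, Ifit2, Ifit3 and Gbp2. For Iigp1 it is the lowest untreated but not the highest with R837.

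The groups were apart untreated and overlapped with R837. Over ISGs, the median level in each untreated library was 5.59, 5.33 and 5.94 log2 CPM in IKKe knockout and 4.86, 4.65 and 4.84 in TBK1-cKD control cells. With R837 it was 6.82, 6.87 and 6.99 against 6.88, 7.14 and 7.32. Untreated IKKe knockout cells had the higher mean for 60 of 60 ISGs (median difference from untreated TBK1-cKD control 0.91 log2 CPM). With R837 they had the higher mean for 13 of 60 (median -0.25). Cxcl10 stood at 6.71, 3.45 and 10.2 CPM in untreated IKKe knockout and 3.42, 1.5 and 1.71 CPM in untreated TBK1-cKD control cells, and with R837 at 58.9, 60 and 76.7 CPM and 125, 174 and 198 CPM. Its responses were 3.54 and 6.45, a difference of -2.90 ± 0.43 (adjusted p = 0.00043). Ifit3 stood at 16.6, 7.96 and 13.99 CPM in untreated and 73.9, 89.97 and 118 CPM in R837-treated TBK1-cKD control cells, so that its response was 3.15 there and 0.30 in IKKe knockout cells (-2.85 ± 0.33, adjusted p = 6.2e-05). For both genes the IKKe knockout libraries lay above the TBK1-cKD ones untreated and below them with R837, save that the lowest untreated Cxcl10 value of the knockout (3.45 CPM) nearly met the highest of TBK1-cKD. Iigp1, an immunity-related GTPase, differed mainly untreated: it stood at 12.4, 10.2 and 18.6 CPM against 1.86, 1.17 and 1.67 CPM, and with R837 at 11.8, 12.8 and 13.9 CPM against 13.6, 14.2 and 21.6 CPM, which overlapped (-3.45 ± 0.34, adjusted p = 1.4e-05).

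The other genes furthest below the TBK1-cKD response were Ifi206 (-3.22 ± 0.37, adjusted p = 6.1e-05), Ifit3b (-3.03 ± 0.41, adjusted p = 0.00023), Slfn1 (-2.88 ± 0.46, adjusted p = 0.00098), Trim30c (-2.79 ± 0.37, adjusted p = 0.00018) and Ifit2 (-2.74 ± 0.33, adjusted p = 7.5e-05). All 8 were called under each of the 21 alternatives. The ISRE letters shown above were in 41 of 152 windows (27.0%) of the 200 lower genes, against 3.27% of tested genes. Those 200 include the 47 lower ISGs, and 59.6% of ISG windows held the letters, so this share is not separate from the ISG result. The share among the other lower genes was not counted. On the higher side, Dusp2 reached 64.6, 70.4 and 69.6 CPM against 27.2, 34.5 and 28.5 CPM (1.28 ± 0.16, adjusted p = 0.00012) and Stard7, a lipid transfer protein gene, 306, 332 and 325 CPM against 159, 168 and 181 CPM (0.92 ± 0.15, adjusted p = 0.0014). Rnd1 was higher by 0.99 ± 0.16 (adjusted p = 0.0018). These 3 were called under every alternative, while Ifitm1 (1.59 ± 0.39, adjusted p = 0.036), Smpd3 (1.37 ± 0.34, adjusted p = 0.038), Tmtc2 (0.88 ± 0.21, adjusted p = 0.03) and Uck2 (0.77 ± 0.17, adjusted p = 0.015) lost the call in 2 to 12 of them.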

How the data were processed

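RNA was read from 24 libraries made with the TruSeq RNA kit v2 and sequenced on a HiSeq4000 as single-end 50 bp reads, per the labels' protocols, which describe marrow of wild-type C57BL/6N mice and 3 individual mice as replicates. Whether the same mice supplied several groups is not stated there, and the titles gave the groups. GSNAP and GRCm38 are named in the submitters' processing notes; the counting program, its use of strand and the annotation release are not stated in those notes or labels. The deposited files hold raw counts per Ensembl gene over its exons, the authors' RPKM values and the deposited gene width. RPKM was not used in any test.

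From the counts, rows with no gene symbol (233 of 52636 per file, 0.0187% of counts) were kept in the totals and entered the fit. edgeR 4.0.16 (R 4.3.3) was fitted to all 24 libraries with 1 mean per group, TMM scaling, its filter at 10 counts (15 in total), a quasi-likelihood F test and Benjamini-Hochberg adjustment at 0.05. CPM are counts over the library's sum of gene counts; log2 CPM are TMM-scaled. SE is the change over the square root of F. On simulated data, 99% of 2-fold and 100% of 4-fold changes (100 genes each) were found for the R837 response. Only these genes were changed, equally up and down, all were well counted, and every gene had the same dispersion. In the data 70.2% of genes changed, so the recovery there cannot be read from this simulation. Differences of responses were contrasts of 4 groups. For genes at 0 the fold is a bound from 3 counts in the whole group, and counts of 1 to 3 got an exact 95% interval; both cover counting error only. Positions come from GENCODE vM21 on GRCm38.

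Named genes were 7 checks, the 12 largest rises and falls of at least 5 CPM, the 8 largest gains and losses in CPM, up to 4 and 2 genes per list in either direction, and the 8 largest differences each way; some items are not reported here. Other genes named were chosen after their values were seen, and the members and lists were chosen with earlier results of these data known. Alternatives were other scalings, filters, tools (DESeq2 1.42.0, limma-voom in limma 3.58.1), libraries left out, and the nuclear RNA level (mean log2 CPM of Malat1, Neat1 and Xist, high above 7) as a term. p-values rest on the spread between libraries within groups, pooled over all 24 libraries. That spread includes the R837 libraries of high nuclear RNA level and TBK1-cKD control R837 replicate 2. For genes tied to that level, it need not be the spread between cultures of different mice in the groups compared.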

Additional observations from a re-analysis of the deposited data

Results flagged for a closer look

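The genes below are those whose R837 response in IKKe knockout cells differed most from that of a comparison genotype, by the edgeR test of the difference itself on the log2 scale. Against TBK1-WT control cells, the response was higher for Ptgs2 by 1.37, Gja1 by 1.15, Timp1 by 1.04, Rnd1 by 1.03, Rcl1 by 0.94, Il17ra by 0.76 and Pla2g4a by 0.75. The difference was -1.45 for Zfyve28, -1.20 for Lrrc32, -0.91 for Gpr162, -0.83 for Fbxo32, -0.69 for Hmga2, -0.69 for Kitl, -0.68 for Arhgap22 and -0.63 for Cxcr4.

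Against TBK1-cKD control cells, the response was higher for Ifitm1 by 1.59, Smpd3 by 1.37, Dusp2 by 1.28, Rnd1 by 0.99, Stard7 by 0.92, Tmtc2 by 0.88 and Uck2 by 0.77. The difference was -3.45 for Iigp1, -3.22 for Ifi206, -3.03 for Ifit3b, -2.90 for Cxcl10, -2.88 for Slfn1, -2.85 for Ifit3, -2.79 for Trim30c and -2.74 for Ifit2. Both comparisons share the 6 IKKe knockout libraries.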

How the results depend on the processing

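With library sizes alone, 2927 genes rose (4751 with TMM). Genes down 2-fold or more numbered 1889 in the fit that includes nuclear RNA level (the term below) and 1978 by glmTreat against 2-fold (3065 otherwise). Leaving out 1 library, 4387 to 4483 rose and 5131 to 5273 fell. Of 274 named genes, 14 changed sign under at least 1 alternative.

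Against TBK1-WT control (19 higher, 17 lower), DESeq2 gave 52 and 70, the term 67 and 79, leaving out the R837 libraries of high nuclear RNA level 55 and 60, and the 12 libraries alone 12 and 11. Leaving out 1 library gave 10 to 22 higher and 7 to 20 lower. The higher count moved by over 1.5 times without IKKe knockout untreated replicate 1 (11) or 2 (11), R837 replicate 1 (11) or 2 (12), or control untreated replicate 2 (10). The lower count did so without knockout untreated replicate 2 (10) or 3 (11), R837 replicate 1 (11) or 2 (8), or control untreated replicate 2 (7). Against TBK1-cKD control (57 higher, 200 lower), no filter gave 32 higher, DESeq2 100 and 338, the term 397 and 561, leaving out the libraries of high level 334 and 511, and the 12 libraries alone 103 higher. Leaving out 1 library gave 25 to 57 higher and 137 to 241 lower. The higher count fell most without TBK1-cKD untreated replicate 2 (25) or 3 (32), knockout untreated replicate 1 (32) or 2 (33), or knockout R837 replicate 1 (30), 2 (31) or 3 (31). The cause of these shifts was not tested.

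Signs changed with library sizes alone for Tbk1 (-0.080), Cdc25a (-0.054), Iigp1 (-0.11), Ifit3 (-0.011) and Trim30c (-0.096). With the term they changed for Nfkbid (0.31), Oas2 (0.35), Samd9l (0.0083), Rps4x (-0.24), mt-Co3 (-0.26), Itgax (-0.20), Tnfrsf11a (0.055) and Ifi206 (0.14). Ifi206 was 0.0081 without the libraries of high level, 0.23 without knockout untreated replicate 3, and 0.022 or 0.073 without R837 replicate 1 or 2. Leaving out single libraries took Ifi206 from -0.22 to 0.23, Ifit3b from -0.49 to 0.10 and Trim30c from -0.058 to 0.45. The difference from TBK1-WT control turned to 0.14, 0.17 and 0.17 for Neat1 and to 0.063, 0.067 and 0.065 for Xist with the term, without the libraries of high level, and without control R837 replicate 1; over single libraries left out, the lowest were -3.44 and -2.21. No paired analysis was possible because the labels carry no replicate numbers.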
